A study of Mus musculus with 6 samples.

Results

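Il12rb2, the gene of the signalling chain of the interleukin-12 receptor, was followed through every cell class of mouse dorsal skin. It is 1 of the 31053 genes listed in the files, and it was chosen from a lower level seen in treated skin in these same libraries, so its own levels are given below as a description with no test. The 6 single-cell libraries form 3 groups of 2. Sham mice (titled normal, treatment given as untreated) received no agent. In the IMQ group imiquimod, applied as 62.5 mg of 5% cream to shaved skin once a day for 4 days, induced a psoriasis-like inflammation. The IMQ+SHP099 group had that cream plus 10 mg/kg SHP099 by the intragastric route, also once a day for 4 days (SHP099 blocks the phosphatase SHP2 at an allosteric site). All mice were C57BL/6 females of 8 to 10 weeks with no engineered allele. Each library was made from the unsorted skin cells of several pooled mice, which cannot be told apart, so the library is the unit compared (n = 2 per group).

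Interleukin-12 (IL-12) is a dimer of the subunits encoded by Il12a and Il12b, and it signals through a receptor built from the chains encoded by Il12rb1 and Il12rb2. Interleukin-23 (IL-23) shares the Il12b subunit and the Il12rb1 chain but uses Il23a and Il23r in place of the others. In T cells and natural killer (NK) cells the Il12rb2 chain recruits the kinase JAK2 and the transcription factor STAT4, which turns on interferon-gamma, whereas IL-23 acts through STAT3 and sustains T cells that make interleukin-17 and interleukin-22.

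Il12rb2 (ENSMUSG00000018341) lies on the minus strand of chromosome 6 of GRCm38, at chr6:67291318-67376188 in the GENCODE annotation, with 2 protein-coding transcripts of 16 and 10 exons. Its 3′ end overlaps the 3′ end of Serbp1, an mRNA-binding protein gene on the plus strand, over 6419 bases (chr6:67291318-67297736), and 1519 of its 3794 exon bases lie inside an exon of Serbp1. Whether the counting used the strand is not given in the sources used here. Levels are given as unique molecular identifiers (UMIs, each the tag of 1 captured molecule) per 1000000 UMIs of the class and library, written CPM. Serbp1 stood at 254 to 410 CPM in fibroblasts and at 395 to 525 CPM in endothelial cells, where Il12rb2 had at most 5 UMIs and 0 UMIs per library, respectively. Sham keratinocytes had 747 and 802 Serbp1 CPM, those of IMQ 854 and 848, and those of IMQ+SHP099 926 and 865. The part of Serbp1 reads in the Il12rb2 counts was not tested.

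UMIs were counted per gene, and the transcript of 10 exons starts elsewhere, at chr6:67339694. The start region of the transcript of 16 exons is shown here. RefSeq gives it for GRCm38.p6 as 300 bases (chr6:67376139-67376438, minus strand, 250 bases before to 50 after the start), printed 5′ to 3′ with capitals marking the single match to the STAT motif TTCNNNGAA.
Il12rb2: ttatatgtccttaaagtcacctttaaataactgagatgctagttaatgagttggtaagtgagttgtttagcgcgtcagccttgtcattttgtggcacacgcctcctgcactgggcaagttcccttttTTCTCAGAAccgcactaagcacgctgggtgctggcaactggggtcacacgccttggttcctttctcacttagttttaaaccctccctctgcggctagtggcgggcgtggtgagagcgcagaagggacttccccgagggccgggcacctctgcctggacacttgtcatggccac
Both strands were searched. The STAT motif was found in 8.29% of the 32817 promoters of this length. No match was found here for TGAGTCA (AP-1, in 5.20% of promoters), TATAAA (13.6%), CCAAT (37.4%) or GGGCGG (35.6%), which says only that these letters are not in this window.

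The files held 53913865 to 188283327 UMIs per library in 7567 to 10746 barcodes. After the study's limits on UMIs, genes and mitochondrial share, 50850 of 55201 barcodes remained, with a median of 5645 (IMQ+SHP099 2) to 18263.5 (IMQ+SHP099 1) UMIs per cell. Of the 50555 distinct barcodes kept, 294 (0.582%) occurred in more than 1 library. Cells were put in classes by marker scores, which left 10.8% of the cells without a class. The keratinocyte class has 15513 cells, of which 218 lay within 0.1 of the margin to the next class. Markers of other classes (Cd3e, Trdc, Col1a1, Lyz2, Ncr1) had a median of 0 over keratinocytes in every library. Krt14, a basal keratin, reached 30.4 to 269 CPM in fibroblasts, which should lack it, against 6204 to 17904 in keratinocytes, and it was highest in IMQ+SHP099 1.

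In Sham skin Il12rb2 was mainly a keratinocyte transcript by number of molecules. Its highest levels were in NK cells, on 2 and 12 UMIs, and in T cells outside the alpha-beta class, which had 5.30 and 5.54 CPM. Sham 1 held 1829 UMIs of the gene (18.7 CPM) and Sham 2 held 730 (8.49 CPM). Keratinocytes carried 86.9% and 66.8% of these, and T cells carried 10.7% and 20.4%. Basal keratinocytes, the Krt5 and Krt14 layer on the basement membrane, alone held 1117 (61.1%) and 298 (40.8%). Keratinocytes made up 71.2% of the cells of Sham 1 and 19.4% of those of Sham 2, and in the whole library the level moved with that share, but within keratinocytes the 2 libraries differed little (19.0 and 17.7 CPM). IMQ 1 and IMQ 2 held 96 and 37 UMIs, and IMQ+SHP099 1 and 2 held 159 and 57. The level over all cells was 0.945 and 0.323 CPM for IMQ, and 0.934 and 1.10 CPM for IMQ+SHP099.

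**Figure D1:**
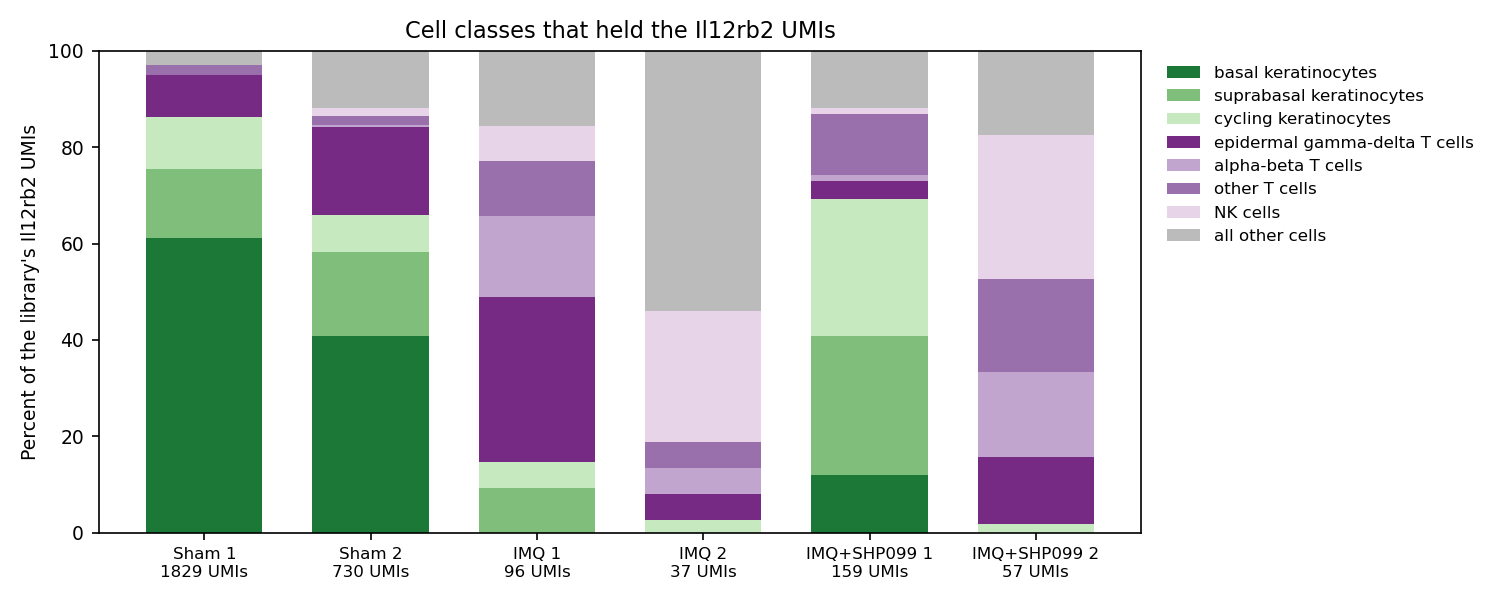
Stacked bars give the percent of each library's Il12rb2 UMIs (y axis) that lay in each cell class, for the 6 libraries, with the number of UMIs under each bar. Basal, suprabasal and cycling keratinocytes fill most of both Sham bars, and the classes are spread differently in each treated library, whose bars rest on 37 to 159 UMIs.

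Within keratinocytes the level followed the layer. In basal cells Il12rb2 stood at 25.4 CPM in Sham 1 (exact 95% counting interval 23.9 to 26.9) and at 32.7 in Sham 2 (29.1 to 36.6). Suprabasal cells, which make Krt1 and Krt10 as they differentiate, had 10.2 (8.98 to 11.5) and 13.3 (11.1 to 15.9). Cycling keratinocytes, defined by at least 3 proliferation genes, had 19.1 and 12.9 CPM and overlapped the suprabasal range. Basal cells were above suprabasal cells in both Sham libraries. These intervals, like all others here, cover counting error only.

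The follicle gave little signal. Keratinocytes of the upper follicle (Krt79 and Krt17) had 1 UMI in each Sham library, 0.690 and 0.439 CPM. Bulge and outer root sheath cells had 8 UMIs in Sham 1 (5.90 CPM, interval 2.55 to 11.6) and 0 in Sham 2, which at a limit of 3 counts allows up to 3.77 CPM. Sebaceous cells had 1 and 5 UMIs (2.07 and 3.38 CPM). In Sham, fibroblasts had 0.763 (0.248 to 1.78) and 0.130 (0.0355 to 0.333) CPM on 5 and 4 UMIs, and the single UMIs of the upper follicle, which could not be told apart from this, are read as background.

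By clusters, built without Il12rb2 or any gene of its pathway, Sham keratinocytes fell mostly in cluster 4 (42.1% and 28.0% of them) and cluster 6 (36.9% and 38.3%). Cluster 4 had 28.0 and 39.4 Il12rb2 CPM, and cluster 6 had 11.7 and 13.9. Cluster 13, which held 12.2% and 16.6%, had only 3.88 and 1.16. Treated keratinocytes lay mostly in clusters 3, 7 and 10, each of which held 15.9% to 49.1% of them and at most 0.814% of Sham keratinocytes. Cluster 13 also held 4.06% and 14.4% of the keratinocytes of IMQ and 3.40% and 9.03% of those of IMQ+SHP099. Apart from it, most Sham and most treated keratinocytes lay in different clusters under the same class name. The highest level of these 3 clusters in any treated library was 1.37 CPM.

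Detection per cell gave the same picture. In Sham 17.5% of 6114 keratinocytes (Clopper-Pearson 95% interval 16.6 to 18.5) and 17.2% of 1598 (15.4 to 19.2) had at least 1 Il12rb2 UMI, at median depths of 9937 and 15241 UMIs. Fibroblasts of the same libraries had 0.470% and 0.131%, at 5300.5 and 8963 UMIs. Of the positive keratinocytes, 323 of 1070 and 109 of 275 had 2 or more, with up to 9 and 12 UMIs in a cell. After thinning every cell to 3000 UMIs, which left out 405 and 30 keratinocytes, 5.76% and 5.80% were positive. The thinned share was 7.49% and 9.52% in basal cells, 3.51% and 4.97% in suprabasal cells, and 0.251% and 0.0711% in fibroblasts.

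The T cell genes in keratinocyte droplets are given next. Keratinocytes with no UMI of 11 T and NK cell genes, a selection made after the values were seen, numbered 3812 in Sham 1 and 949 in Sham 2. They had 23.4 and 21.7 Il12rb2 CPM, no lower than all keratinocytes. The same selection gave 0.271 CPM (2 UMIs) in IMQ 1, 1.12 in IMQ+SHP099 1 and 0 in the other treated libraries. In Sham 1 the keratinocytes had 1.38 Il12rb2 UMIs for each UMI of Trdc, the constant gene of the delta T cell receptor chain, against 0.0263 in the epidermal gamma-delta T cells. In Sham 2 these ratios were 7.75 and 0.0677. The part of T cell RNA in the keratinocyte level was not tested.

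In treated skin the keratinocyte level was under 1 CPM in every library. IMQ 1 had 15 Il12rb2 UMIs in 1257 keratinocytes (0.343 CPM, interval 0.192 to 0.566) and IMQ 2 had 1 in 793 (0.0401, 0.00102 to 0.224). IMQ+SHP099 1 had 115 in 5330 cells (0.793, 0.655 to 0.953) and IMQ+SHP099 2 had 1 in 421 (0.102, 0.00258 to 0.568). Over the libraries (mean ± SD, n = 2) Sham stood at 18.3 ± 0.951, IMQ at 0.192 ± 0.214 and the IMQ+SHP099 group at 0.448 ± 0.489. Both Sham libraries were above all 4 treated libraries, and the ranges of IMQ and IMQ+SHP099 overlapped. Over group sums Sham was 80.1-fold above IMQ (counting interval 49.2 to 140.5) and 24.9-fold above IMQ+SHP099 (20.7 to 30.3). The treated UMIs behind each fold came almost wholly from 1 library. Without IMQ replicate 1 the log2 ratio to Sham moved from -6.32 to -8.86, and without IMQ+SHP099 replicate 1 it moved from -4.64 to -7.52, with 1 treated UMI left in either case.

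**Figure D2:**
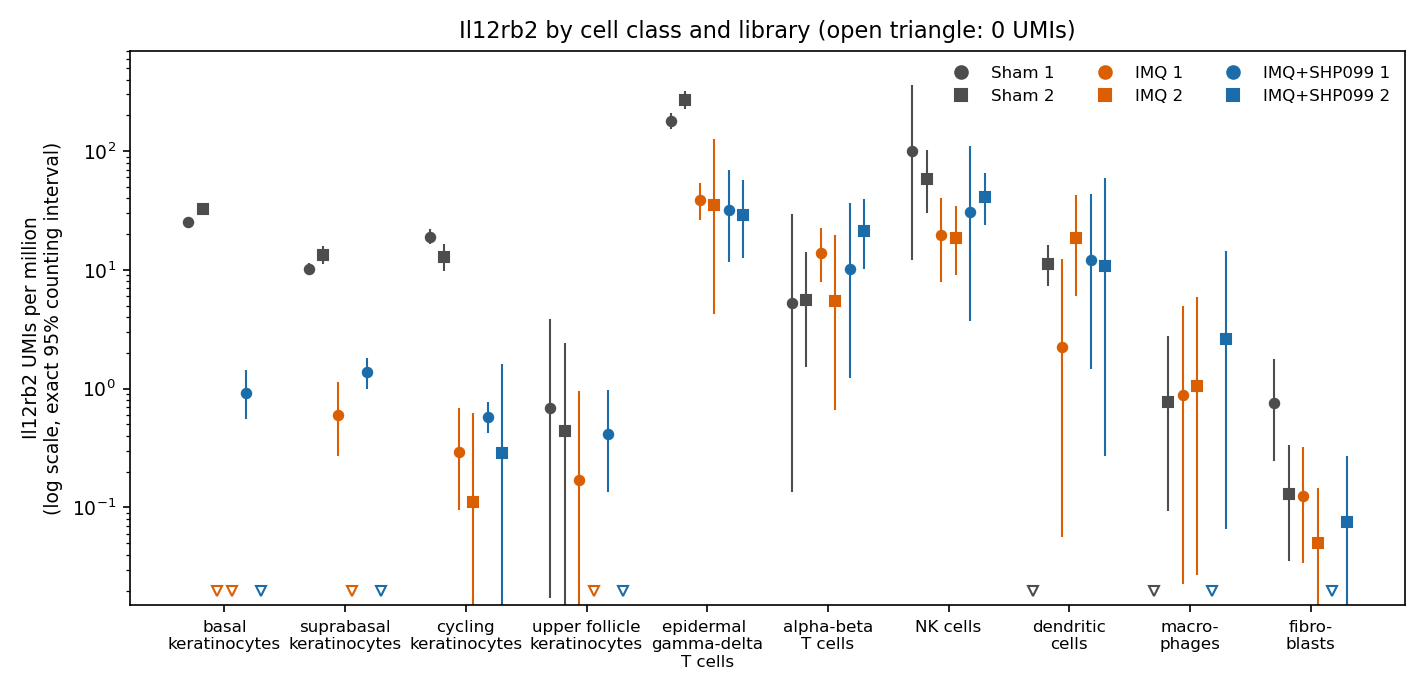
Points give Il12rb2 CPM (log axis) in each cell class, 1 point per library, with exact 95% counting intervals (some run past the lower edge of the axis) and open triangles for libraries with 0 UMIs. The Sham points of basal, suprabasal and cycling keratinocytes and of epidermal gamma-delta T cells lie above every treated point, while those of alpha-beta T cells overlap treated points and fibroblasts stay under 1 CPM throughout.

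Basal, suprabasal and cycling cells each had less in treated skin. Basal keratinocytes had 0 UMIs in 134 cells of IMQ 1, 0 in 90 cells of IMQ 2, 19 in 1075 cells of IMQ+SHP099 1 (0.917 CPM) and 0 in 59 cells of IMQ+SHP099 2. With a floor of 3 counts over the group, Sham basal cells were at least 51.3-fold higher than IMQ, and they were 30.6-fold higher than IMQ+SHP099 (19.5 to 51.0). Suprabasal cells had 0.597, 0, 1.37 and 0 CPM in the treated libraries in the same order. Sham was 26.4-fold (13.7 to 58.1) above IMQ and 8.67-fold (6.38 to 12.0) above IMQ+SHP099 there. Cycling keratinocytes had 0.293 and 0.112 CPM after IMQ, and 0.581 and 0.290 with SHP099 added, or 74.6-fold (33.8 to 205) and 30.3-fold (22.1 to 42.4) below Sham. In all 3 of these subclasses the Sham and treated libraries did not overlap. The upper follicle had 0.171, 0, 0.416 and 0 CPM in the treated libraries, on 0 to 5 UMIs, beside 0.690 and 0.439 in Sham.

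**Figure D3:**
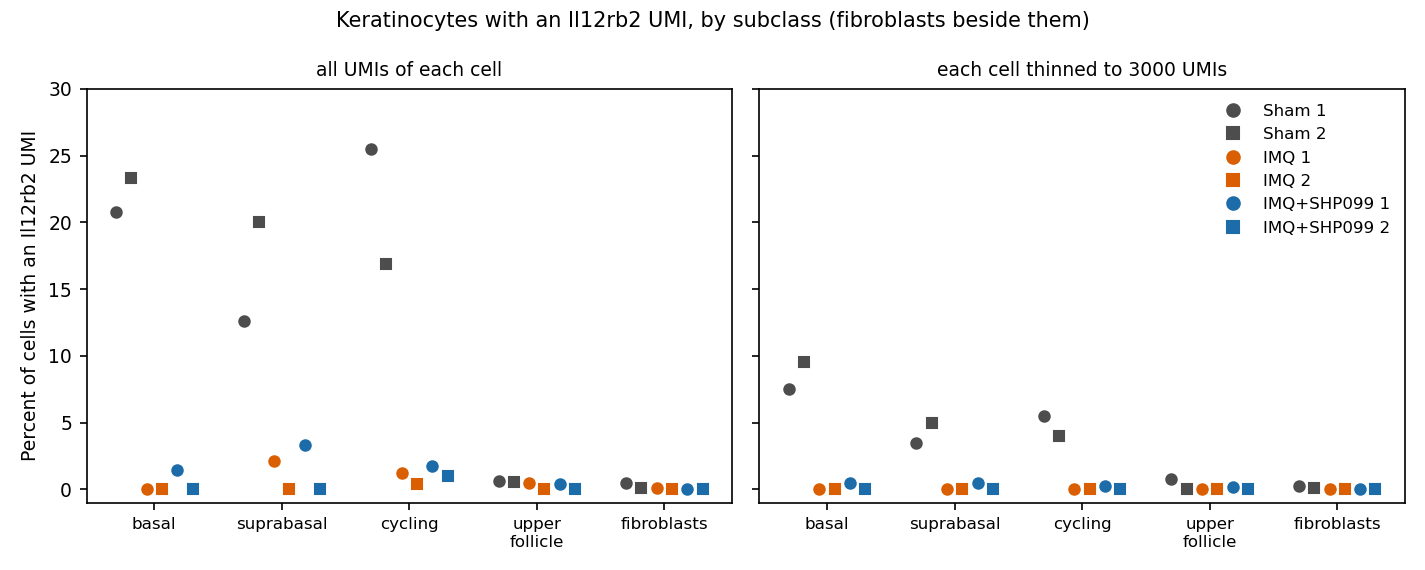
Points give the percent of cells with at least 1 Il12rb2 UMI (y axis) in 4 keratinocyte subclasses and in fibroblasts for each library, on the left with all UMIs and on the right with each cell thinned to 3000 UMIs. The Sham points of the basal, suprabasal and cycling cells stand above the treated points on both sides, and those of the upper follicle do not stand clear of fibroblasts.

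Treated keratinocytes were deeper (medians of 22173 to 35219 UMIs) than Sham ones, yet fewer of them had a UMI. In IMQ 1.19% (0.669 to 1.96) and 0.126% of keratinocytes had a UMI, and in IMQ+SHP099 1.91% (1.56 to 2.32) and 0.238% did. Fibroblasts of these libraries had 0.126%, 0.0522%, 0% and 0.0484% at medians of 5915 to 9380.5 UMIs. The 0 of 1879 fibroblasts in IMQ+SHP099 1 allows, at the same limit of 3 counts, a share of cells with a UMI of up to 0.160%. At 3000 UMIs per cell none of 1218 and none of 771 IMQ keratinocytes were positive, against 0.346% of 5208 and none of 394 in IMQ+SHP099. The values of IMQ 2 and IMQ+SHP099 2, 1 UMI each, could not be told apart from fibroblasts and are read as background. Fibroblasts were themselves lower in treated skin, at 0.125, 0.0504, 0 and 0.0750 CPM on 0 to 4 UMIs. In IMQ+SHP099 1 a low level above that of fibroblasts remained, and 69 of its 115 UMIs lay in cluster 7 and 41 in cluster 3.

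Among T cells most Sham UMIs lay in the epidermal gamma-delta class (157 of 195 and 132 of 149). The class is named after the dendritic T cells that live between keratinocytes and carry the Tcrg-V5 and Trdv4 receptor genes. A UMI of either gene and a gamma-delta score above the alpha-beta score put a T cell in it. Whether all cells of the class are of the named kind was not tested. Their Sham level was 180 CPM in Sham 1 (153 to 211; 157 UMIs in 303 cells) and 272 in Sham 2 (228 to 322; 132 UMIs in 94 cells), and 32.3% and 59.6% of the cells had a UMI. Alpha-beta T cells had 5.30 and 5.54 CPM on 1 and 4 UMIs. T cells put in neither class had an alpha-beta score no higher than their gamma-delta score and, ties aside, no UMI of Trdv4 or Tcrg-V5. They had 192 and 50.2 CPM, so that in Sham 1 they overlapped the gamma-delta class. NK cells, a textbook site of the IL-12 receptor, had 99.8 and 58.8 on 2 and 12 UMIs in 4 and 36 cells. In the order of Sham levels, epidermal gamma-delta T cells stood above basal keratinocytes and these above suprabasal ones without overlap, while NK cells overlapped the other T cells and alpha-beta T cells overlapped suprabasal keratinocytes within their counting intervals.

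In treated skin the level of the epidermal gamma-delta class was 38.5 and 34.9 CPM in IMQ, on 33 and 2 UMIs, and 32.0 and 29.2 in IMQ+SHP099, on 6 and 8 UMIs. Sham was 5.57-fold (3.91 to 8.15) above IMQ and 7.02-fold (4.12 to 13.0) above IMQ+SHP099 in group sums. With cells thinned to 3000 UMIs the log2 ratios of treated over Sham moved from -2.48 to -2.99 for IMQ, on 7 treated UMIs, and from -2.81 to -4.27 for IMQ+SHP099, on 1. No treated library reached the lower Sham library. Thinned to 3000 UMIs, 36.0% of 89 and 52.6% of 78 Sham cells were positive. In the treated libraries 3.85% of 78, 0% of 3, 0% of 1 and 3.70% of 27 cells were, so the values of 0% rest on too few cells to read. Thinning left out 214, 16, 98, 21, 143 and 64 cells in library order, most of the class in several libraries. Alpha-beta T cells had 13.8, 5.42, 10.2 and 21.3 CPM on 16, 2, 2 and 10 UMIs, which overlapped or lay above Sham. Trdc in this alpha-beta class was at 301 to 926 CPM in treated libraries, against 53.0 and 159 in Sham. T cells of neither class had 25.6, 13.1, 82.8 and 37.3, which overlapped the Sham range. NK cells had 19.5 and 18.7 CPM after IMQ, and 30.8 and 41.2 with SHP099 added, all below both Sham libraries, and Sham was 3.28-fold (1.5 to 7.07) above IMQ. The NK ratio of Sham to IMQ+SHP099 was 1.57 with an interval of 0.729 to 3.31.

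Cells in the marker gate for this gamma-delta class differed between libraries in UMIs of Il17a and Il17f. Whether the gate held the same kind of cells in each library was not tested. In IMQ 1 76 of its 176 cells, and in IMQ+SHP099 2 35 of its 91 cells, had a UMI of Il17a or Il17f, the interleukin-17 genes, against 1 of 303 and 2 of 94 cells in Sham. The cells with such a UMI had 0 Il12rb2 UMIs in all 6 libraries. Without them the level in IMQ 1 was 150 CPM (103 to 211), an interval that overlaps that of Sham 1 (181, 153 to 211). In the other treated libraries it was 44.1 (5.35 to 159, 22 cells), 32.8 (12.0 to 71.3, 143 cells) and 81.2 (35.1 to 160, 56 cells). Sham 2 stood at 280 (234 to 332). This split was made after the values were seen. Leaving out the cells with such a UMI thus moved IMQ 1 from 38.5 to 150 CPM and IMQ+SHP099 2 from 29.2 to 81.2, while IMQ+SHP099 1, with 1 such cell in 144, stood at 32.0 with it and 32.8 without. A further split, also made after the values were seen, was by the variable gene of the gamma chain, over all T cells. Cells with a UMI of Tcrg-V5 and none of Tcrg-V6 had 179 CPM (125 to 249, 58 cells) in Sham 1 and 196 (72.1 to 427, 8 cells) in Sham 2. Such cells had 1 UMI in the 11 cells of IMQ 1 (23.4 CPM, 0.592 to 130), 0 in 1 cell of IMQ 2, 1 in the 12 cells of IMQ+SHP099 1 (72.1 CPM, 1.83 to 402) and 0 in the 8 cells of IMQ+SHP099 2. Cells with a UMI of Tcrg-V6 and none of Tcrg-V5 numbered 3 and 2 in Sham, with 1 Il12rb2 UMI in each library. They numbered 17 in IMQ 1 (0 UMIs, interval 0 to 26.1 CPM) and 1 in IMQ 2 (0 UMIs). In IMQ+SHP099 they numbered 3 (1 UMI) and 7 (0 UMIs).

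**Figure D4:**
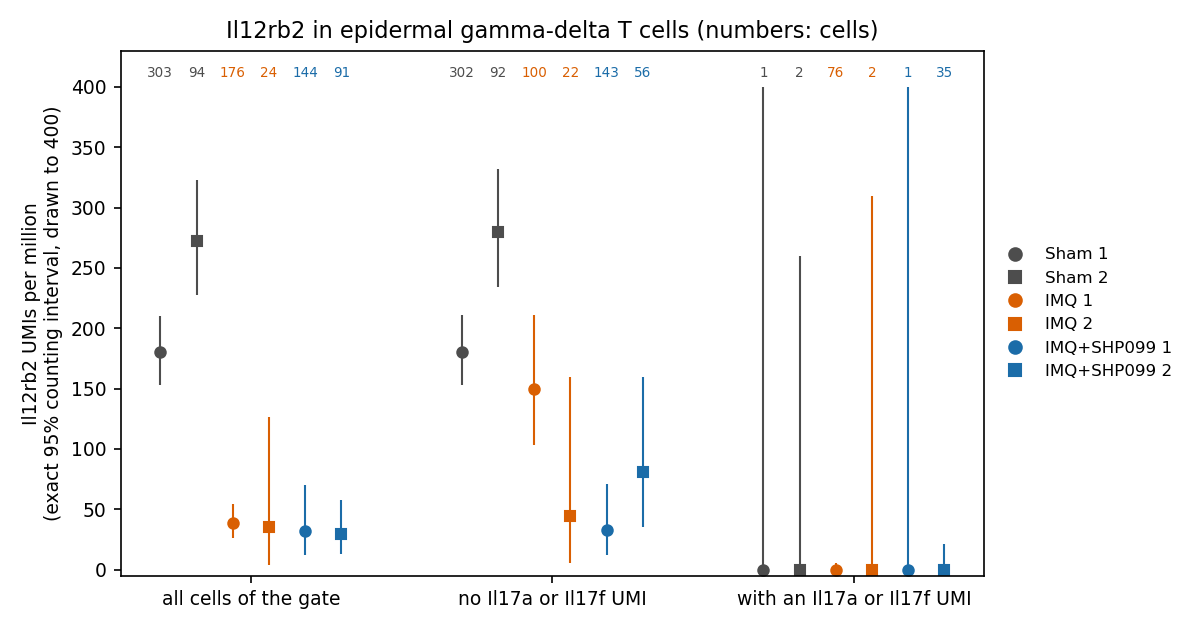
Points give Il12rb2 CPM (y axis, with exact 95% counting intervals drawn up to 400) in all cells of the epidermal gamma-delta gate, in those without and in those with an Il17a or Il17f UMI, for each library, with the number of cells above each point. All points with such a UMI are at 0, most of them on 1 or 2 cells. Without the cells with such a UMI IMQ 1 rises to 150 while the other treated libraries stay at 32.8 to 81.2.

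Myeloid cells held few UMIs. Dendritic cells, the main source of Il12b, had 0 UMIs in 56 cells of Sham 1 and 28 in 215 cells of Sham 2 (11.1 CPM), and 2.22, 18.4, 12.1 and 10.7 CPM in the treated libraries on 1 to 5 UMIs. The ratio of Sham to IMQ in dendritic cells was 1.15 (0.465 to 3.38). Macrophages had 0 to 2 UMIs in every library. Endothelial, lymphatic endothelial and Schwann cells, melanocytes and mast cells had 0 in all 6. In endothelial cells of Sham 2, the count of 0 in 392 cells allows, at the limit of 3 counts, a share of cells with a UMI of up to 0.765%.

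The other chain of the receptor was not found at a like level in keratinocytes. Il12rb1 had 0.0598 and 0.0362 CPM in Sham keratinocytes and 0.0552 to 0.206 in treated ones, against 12.8 to 42.3 in T cells. Il23r, the IL-23 chain encoded next to Il12rb2, had 0.0 to 0.183 CPM in keratinocytes. Stat4, the transcription factor downstream of Il12rb2 in lymphocytes, had 0.0 to 0.0957. Jak2 (25.7 to 31.2 in Sham), Jak1 (131 and 181), Tyk2 (7.92 and 13.1) and Stat3 (147 and 232) were all present in Sham keratinocytes. Of the 29 other genes of the pathway list, 7 had at least 10 CPM in keratinocytes of both Sham libraries, against 12 in epidermal gamma-delta T cells. The count did not follow the Il12rb2 level, as it was 19 in alpha-beta T cells, 10 in fibroblasts and 8 in endothelial cells.

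edgeR's quasi-likelihood test on sums per library, adjusted over all genes by Benjamini-Hochberg, called 14.6% of 14238 genes in keratinocytes for IMQ against Sham and 16.1% for IMQ+SHP099 against Sham. Of the 29 other pathway genes, 19 passed the filter on low counts, and 5 of these were called in IMQ against Sham (3 higher, 2 lower) and 5 in IMQ+SHP099 against Sham (3 higher, 2 lower). The 2 comparisons share the Sham libraries. Keratinocytes were thus a class with broad change, and the pathway genes are read against that background.

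Among the ligands, Il23a rose in keratinocytes. Sham libraries had 1.23 and 1.05 CPM, IMQ libraries 22.6 and 24.4, and IMQ+SHP099 libraries 9.80 and 11.7, with log2 fold changes against Sham of 4.57 (SE 0.32, adjusted p = 0.000203, edgeR) and 3.57 (SE 0.31, adjusted p = 0.000494, edgeR). The treated libraries lay above both Sham libraries. Ebi3, a subunit of interleukin-27, was at 0.24 to 0.63 CPM and was not called. Il12a and Il12b had at most 0.17 CPM in any library and did not pass the filter.

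Among the receptor chains, Il6st, the shared chain of the interleukin-6 family, fell in both treated groups, from 31.5 and 62.3 CPM to 17.3 and 21.3 in IMQ and to 13.9 and 22.3 in IMQ+SHP099 (log2 fold changes of -0.95 with adjusted p = 0.0487 and -0.95 with adjusted p = 0.0467, edgeR). These calls were lost when 1 treated library was left out: no pathway gene was called lower without IMQ 1 or without IMQ 2 in the comparison of IMQ, nor without IMQ+SHP099 1 in that of IMQ+SHP099. The kinases Jak1, Jak2 and Tyk2 and the factor Stat3 were not called, with log2 fold changes between -0.68 and 0.44. Il12rb2 thus stood low in treated cells in which the genes of the shared kinases were still present.

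Of the response genes, Socs1, an inhibitor of JAK kinases, rose by 2.01 (SE 0.30, adjusted p = 0.0039, edgeR) in IMQ and by 1.72 (SE 0.30, adjusted p = 0.00836, edgeR) in IMQ+SHP099 on the log2 scale, from 7.65 and 11.8 CPM in Sham to 26.8 and 36.0 in IMQ. Cxcl10, an interferon-induced chemokine, was called in IMQ+SHP099 (1.68, SE 0.43, adjusted p = 0.0342, edgeR) and not in IMQ (0.91, SE 0.43, adjusted p = 0.182, edgeR). The difference between these 2 was not called (0.77, adjusted p = 1, edgeR). Il22 was called in IMQ (7.02, SE 1.02, adjusted p = 0.00325, edgeR) on 0 and 2 UMIs in Sham against 120 and 60. T cells of the same IMQ libraries had 2044 and 1708 Il22 CPM against 2.74 and 2.41 in keratinocytes, and the part of free T cell RNA in the call was not tested.

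**Figure D5:**
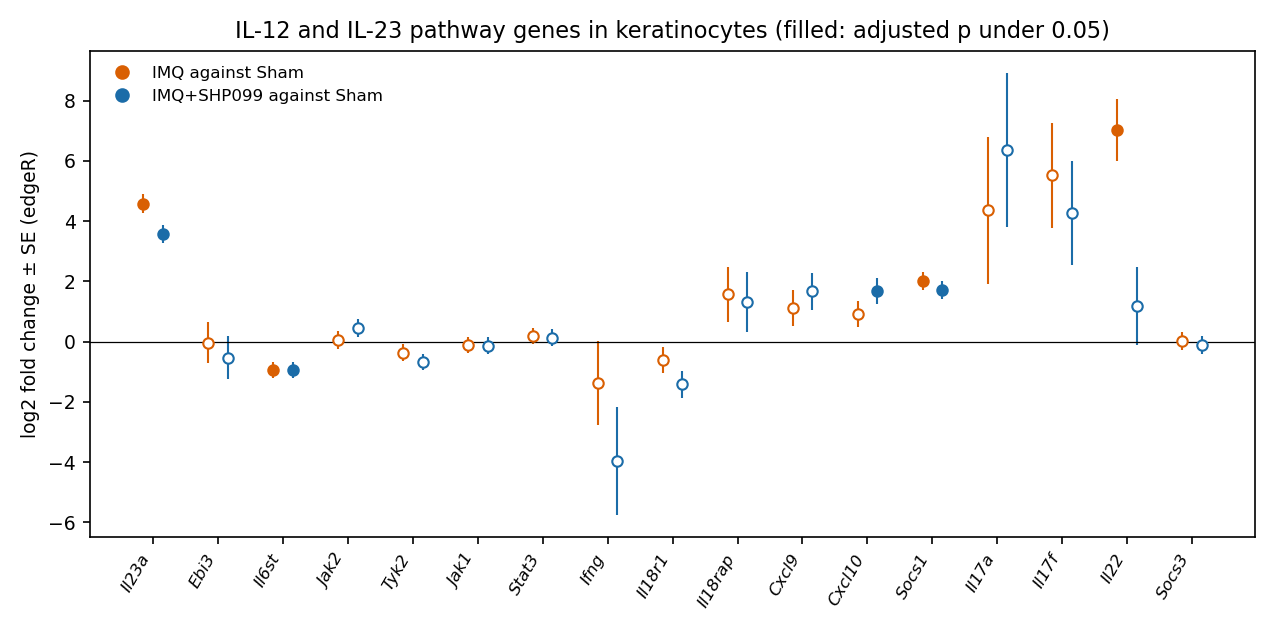
Points give the edgeR log2 fold change against Sham (y axis, bars are SE) of tested pathway genes other than Il12rb2 in keratinocytes, for IMQ and IMQ+SHP099, filled where the adjusted p was under 0.05. Il23a, Il6st and Socs1 are filled in both comparisons, Il22 only in that with IMQ and Cxcl10 only in that with IMQ+SHP099, and the kinases and Stat3 are open points between -0.68 and 0.44.

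IMQ+SHP099 against IMQ called 0% of genes in keratinocytes with edgeR, 388 genes having an unadjusted p under 0.05, while DESeq2 called 19. Of the 19 pathway genes edgeR called 0, with 2 at an unadjusted p under 0.05, and DESeq2 called 1, which was lower. Il23a had a log2 fold change of -1.01 (SE 0.28, adjusted p = 1, edgeR) and Il22 of -5.84 (SE 0.99, adjusted p = 0.647, edgeR).

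In T cells edgeR called 0.0115% of 8716 genes for IMQ against Sham, 0.0344% for IMQ+SHP099 against Sham and 0% for IMQ+SHP099 against IMQ. Of the 22 pathway genes tested it called 0 in each comparison, with 10, 6 and 0 at an unadjusted p under 0.05, and DESeq2 called 2, 0 and 0. Over all 8716 genes 1097, 677 and 195 were at an unadjusted p under 0.05, and DESeq2 called 104, 38 and 0. The values of the IL-23 arm are given beside these counts. Il23r had 4.79 and 9.54 CPM in the Sham libraries, 36.4 and 36.3 after IMQ, and 8.01 and 41.4 with SHP099 added. For Il17a, in the same order, these were 9.58 and 107, 2106 and 905, and 304 and 1919 CPM. For Il22 they were 1.60 and 50.4, 2044 and 1708, and 509 and 1292 CPM. Of the IL-12 arm, Il12rb1 had 12.8 and 42.3, 41.7 and 31.1, and 17.6 and 28.9 CPM, and Stat4 had 18.4 and 20.5, 25.4 and 34.5, and 27.2 and 22.2. Ifng, the cytokine that IL-12 induces, was far apart between the libraries of a group (15.2 and 335, 188 and 268, 24.0 and 330 CPM). The makeup of the T cells differed too, since epidermal gamma-delta cells were 68.6% and 30.7% of them in Sham and 14.9% to 37.2% in treated libraries, and its part in these values was not tested.

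In myeloid cells edgeR called 0.00922% of 10847 genes for IMQ against Sham, 0% for IMQ+SHP099 against Sham and 0% for IMQ+SHP099 against IMQ. Of 17 pathway genes it called 0 in each, with 3, 5 and 0 at an unadjusted p under 0.05, and DESeq2 called 0 in each. Over all genes the unadjusted counts were 1216, 969 and 124, and DESeq2 called 281, 180 and 1. Il12b, the subunit shared by IL-12 and IL-23, had 8.31 and 2.53 CPM in Sham myeloid cells, 1.21 and 6.18 after IMQ, and 10.5 and 0 with SHP099 added, and Il23a had 3.02 and 1.43, 12.9 and 2.74, and 17.5 and 1.85. The groups overlapped for both ligands.

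The annotation lists 6 protein-coding genes within 500 kb of Il12rb2. Il23r, 46744 bases away, and Vmn1r39, a pheromone receptor gene with 0 UMIs, did not pass the filter in keratinocytes. Serbp1, Gng12 (a G protein subunit) and Gadd45a (a stress-response gene) were tested there and none was called, with log2 fold changes of 0.41, -0.14 and -1.13 in IMQ and of 0.62, -0.07 and -0.16 in IMQ+SHP099 against Sham. Gadd45a had 115 and 33.0 CPM in Sham and 27.2 to 69.3 in treated libraries. For Gng12 these were 179 and 148 against 117 to 127, and for Serbp1 747 and 802 against 848 to 926, without overlap. None of these 3 neighbours thus had a called change beside the lower Il12rb2 level, but with 2 libraries per group a missing call does not show that they were unchanged.

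Over 101 sums of a library and a class, the 8 genes most like Il12rb2 among 10977 included Sytl3, Cd7, Ctsw, Nkg7, Il2rb, Cd96 and Cst7, with Pearson r from 0.821 to 0.791 on log2(CPM + 1). Cd7, Ctsw, Nkg7, Il2rb, Cd96 and Cst7 are known as genes of T and NK cells. The points share libraries and depth, and the values are a description. Cd7 had 3274 and 1214 CPM in Sham T cells against 12.4 and 9.99 in Sham basal keratinocytes, and Il2rb had 1169 and 838 against 4.80 and 2.31, while Il12rb2 had 156 and 102 against 25.4 and 32.7. The highest level of any of these in basal keratinocytes was that of Cd7 in Sham 1.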

How the data were processed

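Single cells of dorsal skin were captured with the 10x Genomics 3′ chemistry (6 libraries, 2 per group). The authors counted UMIs per gene and cell with Cell Ranger on GRCm38 (mm10) and deposited the filtered counts of each library, with no normalization. From these counts, the limits of the study were applied to each cell (fewer than 6500 genes, less than 100000 UMIs, a mitochondrial share below 10%). Classes are rebuilt names, not the study's annotation: each cell took the class with the highest marker score (at least 0.5, and 0.25 above the next class). Clusters (Leiden, 34) used no gene of the pathway list. No doublet caller was run, and leaving out the top 5% of UMIs was an alternative. Levels (CPM) are UMIs per 1000000 UMIs summed over a class and library, with exact 95% Poisson intervals, and shares have Clopper-Pearson intervals. PCR and pooling of mice are not covered by these intervals.

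Sums per library were tested for keratinocytes, T cells and myeloid cells with edgeR 4.0.16 (quasi-likelihood, TMM, filterByExpr, all 3 groups in 1 fit, Benjamini-Hochberg over all genes, threshold 0.05) in R 4.3.3, with DESeq2 1.42.0 as an alternative, after tests on simulated data. Genes named are Il12rb2, 29 other genes of a fixed IL-12 and IL-23 list, protein-coding neighbours within 500 kb and the 8 genes most like it. A few of these genes are counted but not reported here by name. The gene, the lists and the tests were chosen with earlier results of these data known. The 2 samples of a group come from separate pools of mice, and p-values measure the spread between them.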

Additional observations from a re-analysis of the deposited data

Results flagged for a closer look

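The direction of the Il12rb2 difference between IMQ+SHP099 and Sham was not shared by all classes. In the alpha-beta T cell class both IMQ+SHP099 libraries lay above both Sham libraries (log2 ratio of group sums 1.72, 12 UMIs against 5). The counting intervals of the single libraries overlapped. This class also had more Trdc in IMQ+SHP099 (926 and 301 CPM) than in Sham (53.0 and 159), and the part of gamma-delta T cell RNA in its level was not tested. Both lay below in NK cells (-0.65), in cycling keratinocytes (-4.92) and in epidermal gamma-delta T cells (-2.81). The difference between these classes was not tested.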

How the results depend on the processing

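The direction of the Il12rb2 log2 ratios of treated over Sham held under every alternative that gave a value in keratinocytes, T cells and epidermal gamma-delta T cells. Thinned IMQ keratinocytes held 0 UMIs and gave no ratio, and clusters gave no gamma-delta class. Leaving out 1 library moved the keratinocyte ratio between -8.86 (without IMQ 1) and -5.77 (without IMQ 2) for IMQ, and between -7.52 (without IMQ+SHP099 1) and -4.56 for IMQ+SHP099. The pooled Sham level was 20.8 CPM in keratinocytes and 13.3 in suprabasal cells after thinning, and 23.0 and 18.3 in cells with no UMI of T or NK cell genes (chosen after seeing the data). With 1 Sham library it ranged from 17.7 to 19.0 in keratinocytes, 25.4 to 32.7 in basal cells, 10.2 to 13.3 in suprabasal cells and 0.130 to 0.763 in fibroblasts. In T cells the ratio of IMQ+SHP099 moved from -1.88 to -2.66 on thinning, on 8 treated UMIs, and that of IMQ from -2.53 to -3.61 without IMQ 1. The causes were not tested.

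Counts of called genes moved more, and are given for IMQ against Sham, IMQ+SHP099 against Sham and IMQ+SHP099 against IMQ in turn. Without the filter on low counts they were 3264, 3644 and 143 in keratinocytes, 493, 264 and 24 in T cells, and 513, 322 and 2 in myeloid cells, and the pathway counts were 8, 11 and 2 in keratinocytes, 6 and 4 in T cells and 2 and 2 in myeloid cells against Sham. DESeq2 called 19 genes and 1 pathway gene in keratinocytes of IMQ+SHP099 against IMQ, 104 and 38 genes in T cells against Sham (2 pathway genes in IMQ), and 281, 180 and 1 in myeloid cells. Classes from clusters gave 3 pathway genes in keratinocytes of IMQ, 1 gene in T cells of IMQ+SHP099 and 5 in myeloid cells of IMQ against Sham. DESeq2 size factors gave 1 gene in T cells of IMQ+SHP099. Fits to the 2 groups alone called 83 and 0 genes in T cells (4 pathway genes in IMQ) and 258 in myeloid cells (1 pathway gene).

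With a replicate block edgeR called 2977, 3280 and 0 genes in keratinocytes (7, 6 and 0 of the pathway), 116, 9 and 0 in T cells (3 of the pathway in IMQ) and 169, 42 and 0 in myeloid cells. The labels do not say that a number marks a shared animal, batch or day, and whether the numbers pair the samples is not known: the correlations of replicate differences between groups were 0.112 to 0.349 in T cells, 0.283 to 0.370 in myeloid cells and 0.0616 to 0.199 in keratinocytes.

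Leaving out 1 library gave 648 (without IMQ 1) to 2261 genes and 3 to 5 pathway genes in keratinocytes of IMQ, 434 (without IMQ+SHP099 1) to 2229 and 4 to 6 in those of IMQ+SHP099, and 0 to 1 between them. In T cells it gave 0 to 64 (without Sham 2) and 0 to 23 (without IMQ+SHP099 1) against Sham, with 0 to 2 and 0 to 3 pathway genes, and 0 to 2 between treated groups. In myeloid cells it gave 0 to 0 for IMQ and 0 to 174 (without IMQ+SHP099 1) for IMQ+SHP099. A lone library was assumed to vary like the others.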
